A study of Mus musculus with 6 samples.

Results

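The apolipoprotein genes held in this series numbered 9 of the 3162 genes with values: Apoa1, Apoa5, Apoc1, Apoc2, Apoc3, Apod and Apoe of families A, C, D and E, and Apol10b and Apoo of families L and O. Genes were taken by name, as symbols that start with Apo and a family letter. Apobr, a receptor gene whose name begins alike, was kept apart. The deposited identifiers are Apoa1 ENSMUSG00000032083, Apoa5 ENSMUSG00000032079, Apoc1 ENSMUSG00000040564, Apoc2 ENSMUSG00000002992, Apoc3 ENSMUSG00000032081, Apod ENSMUSG00000022548, Apoe ENSMUSG00000002985, Apol10b ENSMUSG00000050014 and Apoo ENSMUSG00000079508. The rows themselves appear to have been selected on the fed against fasted difference, since nearly all differ between the groups, by a rule that was not given in the sources used here. The changes of these genes are therefore a description, and where limma's calls on them are counted, nothing is supported with those calls. Of 29 protein-coding apolipoprotein genes in the GRCm38 annotation, the other 20 were not analysed here.

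The tissue was epididymal white fat, the visceral depot beside the epididymis, from wild-type C57BL/6J males aged 16 weeks. Mice were either fed (3 mice) or fasted for 24 h (3 mice), and each of the 6 libraries is from 1 mouse. Values are FPKM as deposited, fragments scaled to transcript length and mapped total, so levels of different genes can be set side by side; the read depth behind them is unknown. The FPKM of the genes held summed to between 180058 and 209201 per library. The study's question was what a day without food does to gene expression and lipid handling there.

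Apolipoproteins coat lipoprotein particles, hold their lipids in solution and act as ligands or cofactors for the receptors and enzymes that take the particles apart. Liver and gut make most of the circulating A and C apolipoproteins. ApoE is also made in quantity by macrophages and adipocytes. In fat, lipoprotein lipase on the capillary wall releases fatty acids from triglyceride-rich particles; ApoC2 is its activator, ApoA5 promotes its action, and ApoC1 and ApoC3 restrain it and slow particle uptake. ApoD is a lipocalin, a carrier of small lipids, and the product of Apoo sits in the inner mitochondrial membrane, so these names do not all mark plasma lipoproteins.

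All 7 genes of families A, C, D and E were higher in fasted than in fed tissue, and each of their fasted libraries exceeded each fed library. Over all genes held, 41.9% had every fasted library above every fed library and 51.5% had every fasted library below. Apoo was lower in every fasted library, and the groups of Apol10b overlapped. Among the 8 apolipoprotein genes averaging 1 FPKM or more, limma called 6 higher and 2 lower, against 41.1% of 2999 tested genes called higher and 49.4% called lower. Nothing is read from these counts, because the rows appear chosen by the same contrast. With p-values adjusted as if all 55536 annotated genes had been tested, 1 of the 8, Apoc3, was called. The median log2 fold change of the 8 was 1.42, beside -0.34 over all genes tested (-0.15 with median-ratio scaling, which raised the share of calls that were higher from 45.4% to 61.1%, and -0.21 with quantile scaling). It was 1.73 for the 6 tested genes of families A, C, D and E. Apoa5 was under the filter. In bulk tissue, more cells of a type and more RNA per cell cannot be told apart.

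**Figure D1:**
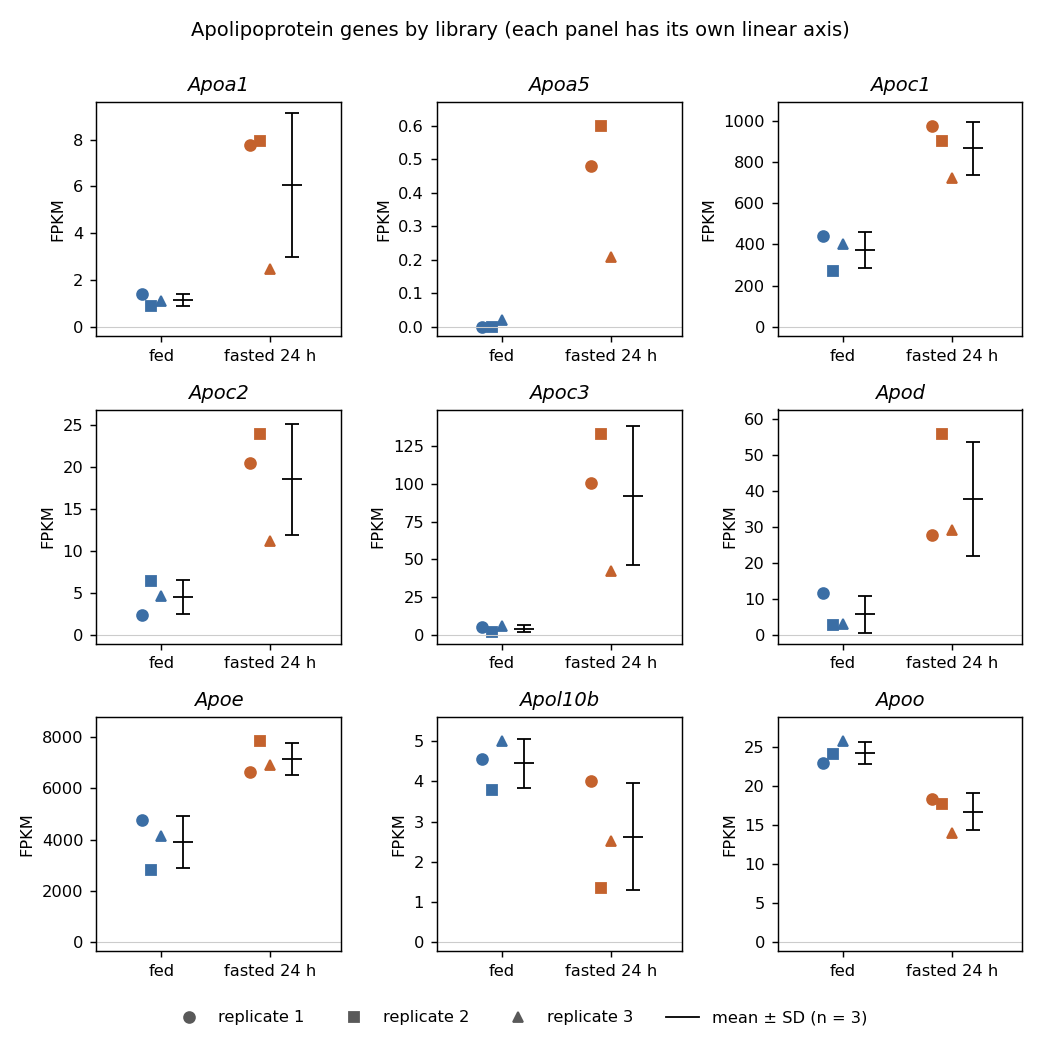
FPKM of the 9 apolipoprotein genes (y axes, linear, 1 scale per panel) in fed and 24 h fasted mice (x axis). Symbols are libraries and bars are mean ± SD of 3, left out for Apoa5, which was listed at 0 in a pair of fed libraries. The 7 genes from Apoa1 to Apoe have no overlap between groups, with the fasted libraries higher; Apoo is lower and Apol10b overlaps.

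Apoe, the ligand through which remnant particles bind receptors on cells, was by far the most abundant member. It had 4778, 2808 and 4122 FPKM in fed mice, against 6628, 7830 and 6917 in fasted mice. Fed replicate 2 was the lowest library and lay well under the other fed libraries, while the fasted libraries were close together. The means were 3902 ± 1003 and 7125 ± 627 FPKM (SD, n = 3 per group), a 1.83-fold ratio and a log2 fold change of 0.90 ± 0.22 (SE, on the log2(FPKM + 1) scale used for every log2 value below). Apoe ranked first among the 3162 genes held in all 3 fasted libraries, and 2, 3 and 1 in the fed. With quantile scaling, which gives all libraries the same set of values, the change was 0.47 and limma no longer called it.

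Apoc1, an inhibitor of lipoprotein uptake and of lipoprotein lipase, lies beside Apoe and was the second most abundant member. It had 442, 272 and 403 FPKM in fed mice, against 974, 901 and 721 in fasted mice. Fed replicate 2 was again the lowest, and the lowest fasted library was 1.63 times the highest fed one. The means were 373 ± 89.1 and 865 ± 130 FPKM, a log2 fold change of 1.23 ± 0.21. Apoc2, the activator of lipoprotein lipase, had 2.38, 6.43 and 4.56 FPKM in fed mice, against 20.5, 23.9 and 11.1 in fasted mice. Its order among fed libraries was the reverse of that of Apoe, with fed replicate 2 the highest. The means were 4.46 ± 2.03 and 18.5 ± 6.61 FPKM, a log2 fold change of 1.85 ± 0.35. Apoc2 shares 646 exonic bases with Gm44805, a gene annotated across Apoc4 and Apoc2 on the same strand, so reads of that transcript could be counted for either.

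Apoe, Apoc1 and Apoc2 form 1 cluster of 27.6 kb on the minus strand of chromosome 7 (GRCm38; Apoc2 at 19671579 to 19677941, Apoc1 at 19689481 to 19692660, Apoe at 19696109 to 19699188), with Apoc4 between Apoc2 and Apoc1. Between Apoc1 and Apoe lie 3448 bases. The first base of Apoc2 is only 141 bases from the end of Apoc4, and that whole interval is shown with the 250 bases before Apoe because both genes were higher in fasted tissue and they lie at opposite flanks of the cluster. Sequences are RefSeq's on GRCm38.p6, read 5′ to 3′ on the gene's strand and ending at the base before the first annotated start; capitals mark matches to the motifs listed after them.
Apoe, chr7:19699189-19699438, minus strand: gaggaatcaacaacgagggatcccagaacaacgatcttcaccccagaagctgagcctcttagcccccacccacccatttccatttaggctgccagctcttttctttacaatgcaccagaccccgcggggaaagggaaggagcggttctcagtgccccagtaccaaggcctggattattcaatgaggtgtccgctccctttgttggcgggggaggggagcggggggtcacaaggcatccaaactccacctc
Apoc2, chr7:19677942-19678082, minus strand: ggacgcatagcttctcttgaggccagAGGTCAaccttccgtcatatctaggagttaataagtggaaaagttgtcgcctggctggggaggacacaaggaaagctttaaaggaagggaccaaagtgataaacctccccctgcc

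The motifs searched, on both strands, were the core promoter element TATAAA, the nuclear receptor half-site AGGTCA, the forkhead motif GTAAACA (the family of FOXO1), the C/EBP motif TTGCNNCAA, the Sp1 motif GGGCGG and the E-box CACGTG. None of them overlapped another in the sequences shown. The stretch before Apoe held none of the 6 and was 57.2% G or C. That before Apoc2 held 1, AGGTCA, with 109 bases between it and the start; the same window holds AGGTCA in 8.05% of the 32851 promoters in the RefSeq table. These are letter matches only, and the absence of a match says nothing about a factor.

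Apoc3, an inhibitor of lipoprotein lipase and of remnant uptake, had the largest positive change of the 2999 tested genes. It had 5.12, 1.52 and 5.58 FPKM in fed mice, against 100, 133 and 42.3 in fasted mice. The lowest fasted library, replicate 3, was still 7.59 times the highest fed one. The means were 4.07 ± 2.22 and 92.1 ± 46.1 FPKM, a 22.6-fold ratio and a log2 fold change of 4.17 ± 0.49. The change ran from 3.73 without fed replicate 2 to 4.65 without fasted replicate 3. With a pseudocount of 0.1 it was 4.51, close to the 4.48 of Slc25a34, a gene averaging 0.33 FPKM fed and 11.2 fasted. The rank of Apoc3 is therefore given for the pseudocount of 1 only. In fed tissue Apoc3 was the seventh of the 9 members by level, its libraries overlapping those of Apol10b; in fasted tissue it was the third, overlapping Apod.

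Apoa1, the main protein of high-density lipoprotein, was scarce: 1.42, 0.91 and 1.10 FPKM in fed mice, against 7.75, 7.93 and 2.49 in fasted mice. Fasted replicate 3 was the low one, as for Apoc3. The means were 1.14 ± 0.26 and 6.06 ± 3.09 FPKM, a log2 fold change of 1.60 ± 0.36, and 2.16 with a pseudocount of 0.1, since the usual pseudocount of 1 understates changes at such levels. Apoa5, which promotes lipolysis by lipoprotein lipase, was listed at 0, 0 and 0.02 FPKM in the fed libraries and at 0.48, 0.60 and 0.21 in the fasted. These values were under the filter of 1 FPKM and no fold is given. Apoa5 shares 524 exonic bases with the antisense gene Gm47544, and whether the values separate the strands is unknown. The order of the fasted libraries (replicate 2, then 1, then 3) was the same for Apoa1, Apoa5, Apoc2 and Apoc3.

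Apoa1, Apoc3 and Apoa5 lie together on chromosome 9 within 43.3 kb (Apoa1 at 46228580 to 46230466, Apoc3 at 46232933 to 46235636 on the minus strand, Apoa5 at 46268633 to 46271919), with Apoa4 between Apoc3 and Apoa5. Apoa1 and Apoc3 point toward each other with 2466 bases between them. The stretches before Apoa1 and Apoa5 are shown because both genes were higher in fasted tissue and they lie at opposite ends of the cluster. The RefSeq promoter table used here gave no entry for Apoc3 or Apoc1.
Apoa1, chr9:46228380-46228579, plus strand: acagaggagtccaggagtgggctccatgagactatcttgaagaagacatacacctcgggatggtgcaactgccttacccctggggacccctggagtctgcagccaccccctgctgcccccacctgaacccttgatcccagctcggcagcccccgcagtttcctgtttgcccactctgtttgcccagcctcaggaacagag
Apoa5, chr9:46268358-46268607, plus strand: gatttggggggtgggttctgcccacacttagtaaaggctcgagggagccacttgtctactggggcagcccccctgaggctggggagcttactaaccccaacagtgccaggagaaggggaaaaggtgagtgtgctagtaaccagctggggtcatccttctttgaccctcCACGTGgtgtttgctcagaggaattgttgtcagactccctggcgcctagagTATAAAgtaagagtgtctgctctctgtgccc

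The 200 bases before Apoa1 held none of the 6 motifs (60.5% G or C). The 250 bases before Apoa5 held 2. TATAAA lay with 25 bases between it and the RefSeq start, and the same window holds it in 12.4% of promoters. CACGTG lay with 76 bases between, and 6.02% of promoters hold it.

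Genes flanking the clusters differed in what was held. Within 50 kb of the chromosome 9 cluster, 2 of 5 other protein-coding genes, Apoa4 among the 5, were held. Both were higher in every fasted library, as were 41.9% of all genes held, and they were named after their values were seen. Nothing is read from these counts, because the rows appear chosen by the same contrast. Sik3, a kinase gene that ends shortly before Apoa1, had 15.5, 10.8 and 15.3 FPKM fed and 32.8, 39.7 and 26.9 fasted (log2 fold change 1.20 ± 0.19). Zpr1, a zinc finger gene just after Apoa5, had 11.2, 10.9 and 11.7 FPKM fed and 31.5, 39.0 and 22.0 fasted (1.34 ± 0.20). Both were therefore lowest in fasted replicate 3 and highest in fasted replicate 2, the order seen for the apolipoprotein genes between them. Apoc2 on chromosome 7 had this order too, so it is not particular to this cluster. Over all genes held, 27.9% were highest in fasted replicate 2 and 47.1% lowest in fasted replicate 3. Within 50 kb of the chromosome 7 cluster, 0 of 6 other protein-coding genes were held.

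**Figure D2:**
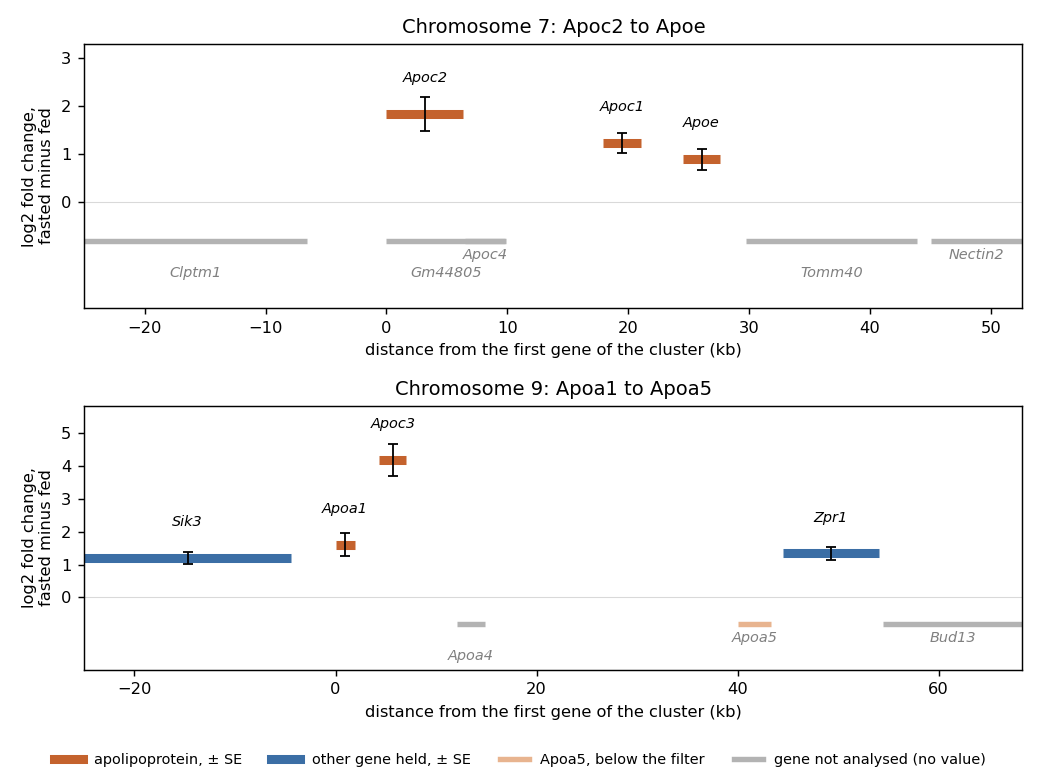
Log2 fold change, fasted minus fed, with SE (y axis), of genes along the 2 apolipoprotein clusters (x axis, kb from the first gene). Orange bars are apolipoprotein genes and blue bars other genes held; grey bars have no value, and Apoa5 is drawn without one because it was under the filter. Changes on chromosome 7 run from 0.90 to 1.85, while on chromosome 9 Apoc3 (4.17) stands above Apoa1 (1.60), Sik3 (1.20) and Zpr1 (1.34).

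Apod, the lipocalin, lies alone on chromosome 16 (31296192 to 31314808, minus strand) and is known to be expressed by fibroblasts and glia. It had 11.7, 2.59 and 2.89 FPKM in fed mice, against 27.8, 55.9 and 29.1 in fasted mice. Fed replicate 1 lay far above the other fed libraries, and fasted replicate 2 was the highest library. The means were 5.71 ± 5.15 and 37.6 ± 15.9 FPKM, a log2 fold change of 2.71 ± 0.49. It ran from 2.39 without fed replicate 2 or fasted replicate 2 to 3.29 without fed replicate 1. Of the tested genes, 11 had a larger positive change than Apod on the log2(FPKM + 1) scale, 55 than Apoc2 and 453 than Apoe.

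The other families went the other way. Apoo, on the X chromosome (94367117 to 94417093), encodes a subunit of MICOS, the complex that shapes mitochondrial cristae. It had 23.0, 24.1 and 25.8 FPKM in fed mice, against 18.4, 17.8 and 14.0 in fasted mice. The groups did not overlap, with means of 24.3 ± 1.39 and 16.7 ± 2.37 FPKM. The log2 fold change was -0.52 ± 0.14, where the median of all tested genes was -0.34, and -0.32 with median-ratio scaling, under which limma no longer called it. Apol10b, of the L family of intracellular apolipoproteins on chromosome 15 (77583819 to 77596125), had 4.56, 3.80 and 5.0 FPKM fed and 4.01, 1.35 and 2.52 fasted. Fasted replicate 1 lay within the fed range, and the means were 4.45 ± 0.61 and 2.63 ± 1.33 FPKM. Its log2 fold change was -0.65 ± 0.27 and moved to -0.37 without fasted replicate 2; limma did not call it with median-ratio scaling, with a pseudocount of 0.1 or without any 1 of the libraries other than fasted replicate 1. Apol10b has close relatives beside it on the chromosome, so its reads may be shared with them.

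**Figure D3:**
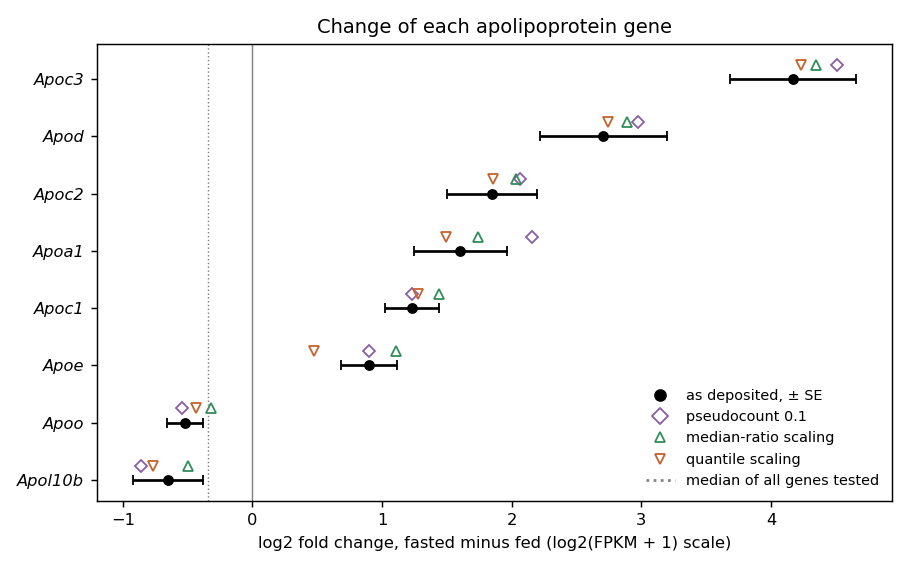
Log2 fold change, fasted minus fed, of the 8 apolipoprotein genes above the filter (x axis), with SE bars for values as deposited and open symbols for other scalings or a pseudocount of 0.1. The 6 genes of families A, C, D and E stay above 0 under each of these settings and the other 2 below it; Apoe moves most in proportion, from 0.90 to 0.47 with quantile scaling.

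Ratios within a library need no scaling between libraries. The 9 genes summed to 2.77%, 1.49% and 2.31% of the FPKM of all genes held in the fed libraries and to 4.14%, 4.86% and 4.30% in the fasted. Apoe made up 90.3 ± 0.35% of that sum in fed and 87.3 ± 2.09% in fasted tissue. Apoc1 gained on it slightly, from 92.6, 97.0 and 97.9 FPKM per 1000 FPKM of Apoe in the fed libraries to 147, 115 and 104 in the fasted. The gain of Apoc3 was of another size: from 1.07, 0.54 and 1.35 per 1000 of Apoe to 15.2, 17.0 and 6.12. The ratio of Apoc3 to its neighbour Apoa1 went from 3.61, 1.67 and 5.07 to 13.0, 16.8 and 17.0, so Apoc3 was higher relative to Apoa1 in every fasted library than in any fed one. Apoc3 over Apoc2 went from 2.15, 0.24 and 1.22 to 4.91, 5.58 and 3.80. This does not extend to Apoc1, also an inhibitor of lipoprotein lipase and far more abundant than Apoc3. Apoc1 rose less (log2 fold change 1.23 ± 0.21) than the activator Apoc2 (1.85 ± 0.35). The groups did not overlap in any of these ratios. For Apoc2 against Apoe they did, with 2.29 per 1000 in fed replicate 2 and 1.61 in fasted replicate 3.

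**Figure D4:**
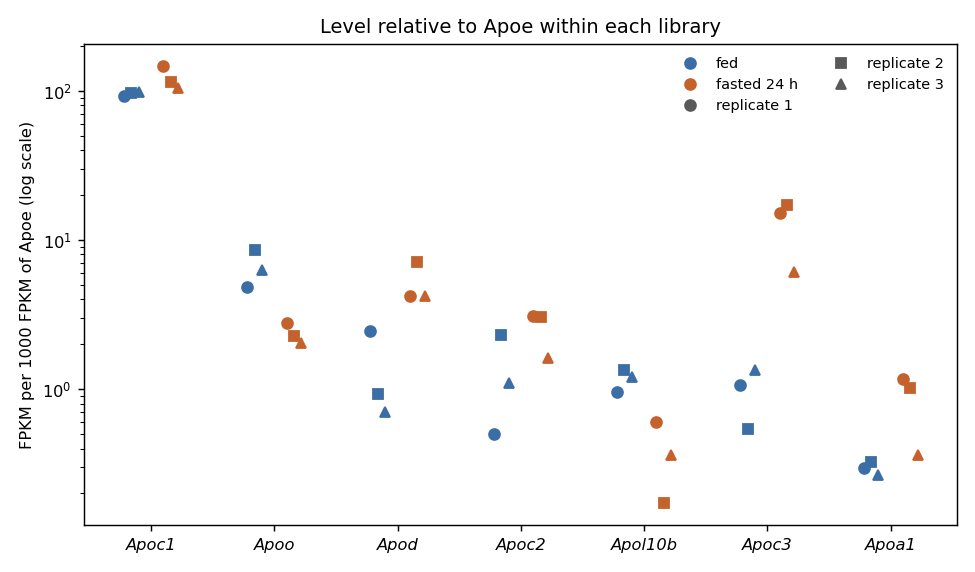
Level of 7 apolipoprotein genes per 1000 FPKM of Apoe in the same library (y axis, log scale), by gene (x axis), with fed libraries in blue and fasted in orange and the symbol giving the replicate. Apoc3 moves from 0.54 to 1.35 in fed to 6.12 to 17.0 in fasted libraries, Apoc1 stays between 92.6 and 147, and Apoo and Apol10b are lower in fasted libraries.

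The order of levels also changed. In fed tissue it was Apoe, Apoc1, Apoo, then Apod, Apoc2, Apol10b and Apoc3, whose neighbours overlapped between libraries, then Apoa1 and Apoa5. In fasted tissue Apoc3 and Apod, which overlapped, came after Apoc1; Apoc2 and Apoo overlapped, as did Apoa1 and Apol10b. Within the fasted group the genes of families A, C, D and E also tended to share an order: 6 of 7 were highest in replicate 2 and 5 of 7 lowest in replicate 3, where 27.9% and 47.1% of all genes held were. Apoc1 was highest in replicate 1, and Apod and Apoe were lowest in replicate 1. Among fed libraries replicate 2 was the lowest for Apoa1, Apoc1, Apoc3, Apod and Apoe, and for 28.3% of all genes held. These shares over all genes held take in the 51.5% with every fasted library below every fed one. How usual such orders are among genes that rose was not tested.

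The genes nearest to Apoc3 and Apoe in pattern were found by the root mean square difference of log2(FPKM + 1) profiles over the 6 libraries, each centred on its own mean. For Apoc3 they were Peg3 (0.58), an imprinted zinc finger gene, Fbxo31 (0.77), an F-box gene, and Slc25a34 (0.78), a mitochondrial carrier gene. The nearest, Peg3, went from 13.5 ± 6.47 to 132 ± 58.1 FPKM. Near Apoe were Negr1 (0.06), a cell adhesion gene, and Osbpl11 (0.06), an oxysterol-binding protein relative. Both are far less abundant than Apoe: Osbpl11 had 32.5 ± 7.69 FPKM in fed and 58.8 ± 8.13 in fasted tissue.

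Lists of genes that act with apolipoproteins held 115 annotated genes, of which 39 had values. Of these 39, 15 rose, 22 fell and 2 did not pass the test (limma, adjusted p under 0.05 over all 2999 genes), where 41.1% of all tested genes were called higher and 49.4% lower. Their median log2 fold change was -0.35, near the -0.34 of all genes tested. With median-ratio scaling 10 fell and with quantile scaling 12. Falls numbered 14 without fasted replicate 1 and 13 without fasted replicate 2. Adjusted over all annotated genes, 6 rises and 2 falls passed. As these rows appear chosen on the same libraries, the counts are not independent evidence of direction. The counts of each list below stand against the same background shares, and over all tested genes the lower calls went from 1482 to 787 with median-ratio scaling.

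Of 6 measured receptor and uptake genes, 5 fell and 1 rose. Lrp11 (-0.94 ± 0.21), of a lipoprotein receptor-related family, Apobr (-0.84 ± 0.18), the ApoB48 receptor gene, and Lrpap1 (-0.84 ± 0.19), a chaperone of lipoprotein receptors, fell. Stab2, a scavenger receptor of sinusoidal endothelium, rose (1.0 ± 0.23). Its values were 0.28, 0.22 and 0.62 FPKM fed and 1.25, 1.54 and 2.52 fasted. Stab2 passed the filter of 1 FPKM only through the fasted libraries, so nothing is read from its call. Apobr went from 3.40, 5.17 and 3.47 to 1.79, 1.86 and 1.67 FPKM, opposite to families A, C, D and E, and shares 442 exonic bases with Cln3 and 103 with Il27 on the other strand. Scarb1, the receptor for high-density lipoprotein, was named after its values were seen. Scarb1 had 98.9, 76.5 and 107 FPKM fed and 66.3, 45.0 and 68.9 fasted (-0.65 ± 0.20); the call was lost with either scaling, and when fed replicate 3 or fasted replicate 2 was dropped.

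On the side of lipolysis, 4 of 8 measured genes rose, 3 fell and 1 did not pass. Gpihbp1, which anchors lipoprotein lipase on capillaries, had 273, 249 and 282 FPKM fed and 639, 482 and 474 fasted (0.97 ± 0.15). Every fasted library was above every fed one. Pcsk5 (1.62 ± 0.19), a proprotein convertase gene, Pla2g7 (1.21 ± 0.24), encoding the lipoprotein-associated phospholipase, and Lipa (0.56 ± 0.13), the lysosomal acid lipase, also rose. Angptl8, a partner of the lipoprotein lipase inhibitors, did not pass, and was named after its values were seen. It had 5.61, 49.4 and 5.27 FPKM fed and 4.64, 3.33 and 1.70 fasted, with fed replicate 2 far above every other library. The gene of lipoprotein lipase itself was not analysed here.

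Cholesterol efflux and LXR target genes were split, with 3 of 7 rising and 4 falling. Abcg1, the transporter that passes cholesterol to high-density lipoprotein, had 5.60, 8.01 and 10.7 FPKM fed and 27.8, 38.7 and 29.8 fasted (1.89 ± 0.23). Npc1 (1.80 ± 0.16), which exports cholesterol from lysosomes, and Mylip (0.73 ± 0.17), a ubiquitin ligase gene, rose as well. Srebf1, which encodes a lipogenic transcription factor, fell (-1.54 ± 0.20). The LXR targets Abcg1, Mylip and Srebf1 thus did not share a direction. Npc1 shares 511 exonic bases with Rmc1 on the other strand, which was also held.

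In lipoprotein assembly and secretion, 7 of 9 genes fell and 2 rose. Dgat2 (-3.85 ± 0.39), of triglyceride synthesis, the COPII coat genes Sec24d (-0.84 ± 0.15) and Sec13 (-0.66 ± 0.13), and P4hb (-0.56 ± 0.11), a subunit of the microsomal triglyceride transfer complex, fell. Mttp, the other subunit, named after its values were seen, had 1.24, 0.99 and 1.73 FPKM fed and 2.98, 2.56 and 2.90 fasted (0.73 ± 0.17). Among transcription factors known to act on apolipoprotein genes, 4 of 5 rose and 1 fell. Ppara (0.70 ± 0.15), Ppargc1a (0.90 ± 0.24) and Rora (0.41 ± 0.16) were among those that rose. Ppargc1a averaged 0.77 FPKM fed and 2.33 fasted and passed the filter of 1 FPKM only through the fasted libraries. Nothing is read from its call. The call on Rora was lost with quantile scaling, and when fed replicate 1, fed replicate 3, fasted replicate 1 or fasted replicate 2 was dropped.

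Of 4 measured partners of Apoo in or around MICOS, 2 fell, 1 rose and 1 did not pass. Immt (-0.44 ± 0.14), the core subunit, and Mtx1 (-0.39 ± 0.11) fell by amounts like that of Apoo. These changes were also near the median of -0.34 over all tested genes. Limma called neither Immt nor Mtx1 with median-ratio or quantile scaling or without fasted replicate 2. Immt was also not called when fed replicate 1, fed replicate 3 or fasted replicate 1 was dropped. Minos1 (-0.24 ± 0.12), another subunit, did not pass. Chchd10 rose (2.99 ± 0.30), and shares 155 exonic bases with Mmp11 and 25 with Gm867 on the other strand, both held. Exons of Mtx1 also overlap Thbs3 (318 bases) and those of Srebf1 overlap Rai1 (109 bases), each on the other strand. The strand setting was not given, so whether the values separate such pairs is unknown.

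**Figure D5:**
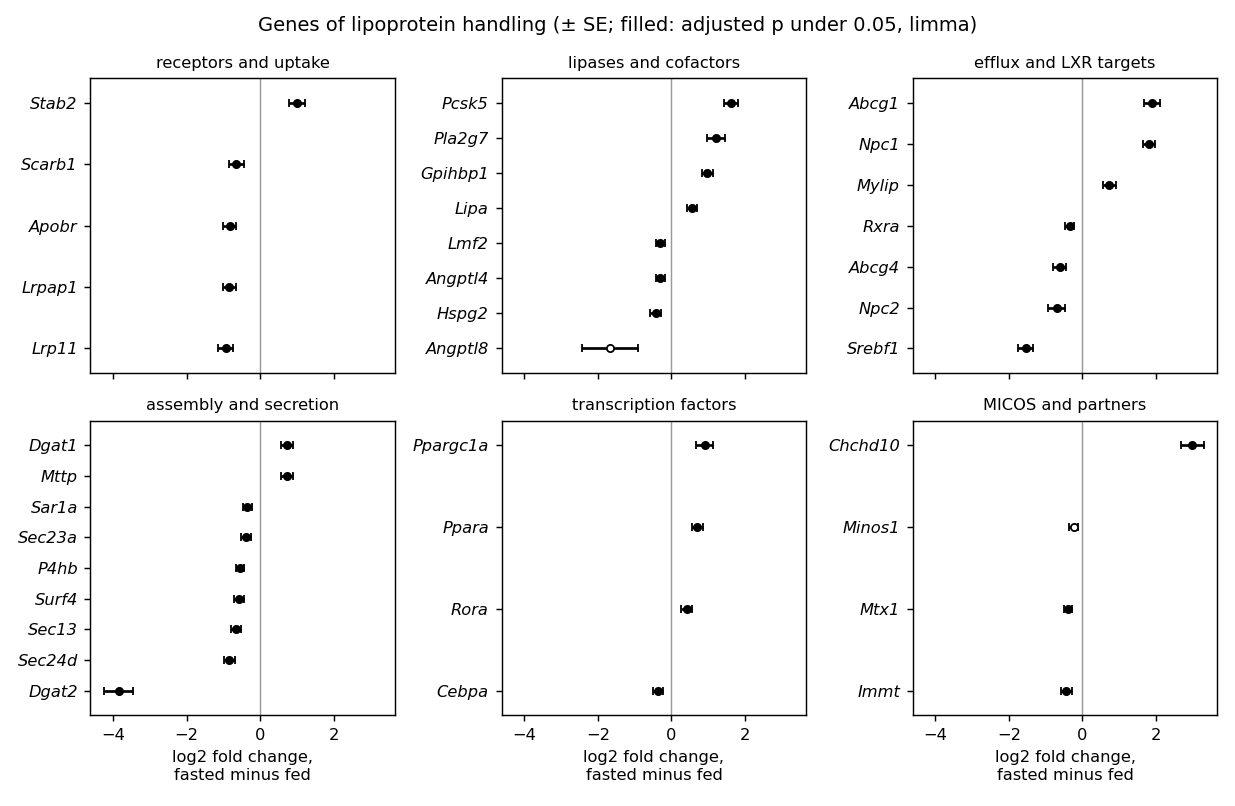
Log2 fold change, fasted minus fed, with SE (x axis), of measured genes in 6 lists that act with apolipoproteins (y axis, gene names); filled points passed the limma threshold. Receptor and assembly genes lie mostly below 0; over the 39 measured genes, of which a few are not drawn, 15 rose.

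Markers of cells that could carry apolipoprotein RNA were read from the same libraries. Of 18 macrophage markers 4 were held, and their summed level was 14.5 to 21.9 FPKM in fed and 16.6 to 24.4 in fasted libraries, with overlap. Mpeg1 rose (0.96 ± 0.19) while Itgam (-1.03 ± 0.25) and Marco (-1.15 ± 0.39) fell. Marco was scarce, with 0.71, 2.36 and 4.38 FPKM fed and 0.12, 0.75 and 0.45 fasted, so its groups overlapped. It passed the filter of 1 FPKM only through the fed libraries. Cd5l, the remaining marker held, averaged 1.34 FPKM fed and 0.13 fasted and was under the filter. Of 16 hepatocyte markers 3 were held, and their sum was 6.82 to 17.0 FPKM in fed and 3.65 to 4.62 in fasted libraries. Serpina1a (0.72 FPKM on average) and Mup3 (0.11) were scarce in fasted tissue. Albumin fell from 4.47, 12.6 and 11.9 to 2.28, 3.65 and 4.34 FPKM, and Mup3 was listed at 0 in fasted replicate 3. Of 9 enterocyte markers 0 were held. The 6 of 15 fibroblast and progenitor markers held summed to 1061 to 1309 FPKM in fed and 1346 to 2015 in fasted libraries. Dcn was the largest part of that sum, averaging 505 FPKM fed and 1061 fasted, so the sum does not give the direction of the list. There were 2 rises, Dcn (1.06 ± 0.25) and Ly6a (0.79 ± 0.23), and 4 falls. The median log2 fold change of the 6 was -0.37. The falls were Col3a1 (-1.34 ± 0.11), Dpt (-0.88 ± 0.30), Col1a2 (-0.38 ± 0.14) and Col1a1 (-0.36 ± 0.15). Dcn was highest in fasted replicate 2 among the fasted libraries, as were Apod and 27.9% of all genes held. Of 9 Schwann cell and glia markers 1 was held, Pmp22, which fell from 106, 130 and 78.2 to 34.5, 47.6 and 38.8 FPKM. With 1 marker held, the direction of glial RNA cannot be given. The 4 of 9 endothelial markers held all rose, with sums of 176 to 217 and 283 to 414 FPKM. Of 15 adipocyte markers, the 5 held fell, with sums of 5910 to 7076 and 3260 to 3825 FPKM; Plin1, of the lipid droplet coat, had 741 FPKM on average in fed and 341 in fasted tissue, so defining adipocyte transcripts were present in both. The part of any of these cell types in the apolipoprotein values was not tested.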

How the data were processed

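RNA from epididymal white fat of 6 mice was sequenced, 3 fed and 3 fasted for 24 h, per the labels. The authors deposited FPKM values per gene, made with RSEM on mm10 (GRCm38.p6) per the submitters' processing notes; the aligner, versions, strand setting and row selection were not given in the sources used here. FPKM hides read depth, so no counting interval is given.

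Gene symbols and positions came from the GRCm38 annotation. Values were tested as log2(FPKM + 1) with limma 3.58.1 in R 4.3.3 (moderated variance with a trend), for genes averaging 1 FPKM or more, with Benjamini-Hochberg adjustment over 2999 genes and a threshold of 0.05. The code was tested on simulated data. Apolipoprotein genes were all described. Of each list, up to 4 genes with the smallest p were named, and for Apoc3 and Apoe the 3 genes nearest in pattern. A few genes that these rules select are not reported here. The members and lists were chosen with earlier results of these data known. Alternatives were a pseudocount of 0.1, median-ratio and quantile scaling, no filter, no trend, adjustment over all annotated genes, and leaving out each library. Replicate numbers follow accession order and pair nothing.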

Additional observations from a re-analysis of the deposited data

How the results depend on the processing

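Under every alternative run, the 6 tested genes of families A, C, D and E stayed above 0 and Apoo and Apol10b below it, and the median log2 fold change of the 8 stayed between 1.26 and 1.70 when each library was left out. Apoe moved to 0.47 with quantile scaling and Apoo to -0.32 with median-ratio scaling, and each lost its call there. Apol10b lost its call with median-ratio scaling, with a pseudocount of 0.1 and without any 1 library other than fasted replicate 1. Adjusted over all annotated genes, Apoc3 alone of the 8 was called. Of all tested genes, 1232 were called higher and 1482 lower; adjusted over all annotated genes these counts were 172 and 192, and with median-ratio scaling 787 were lower. Of the 39 list genes, 15 were called higher and 22 lower. Adjusted over all annotated genes they were 6 and 2; the lower count was 10 under median-ratio and 12 under quantile scaling, and 13 to 16 when each library was left out. Adjustment over all annotated genes changes only the number of tests; the cause of the other shifts was not tested. No paired analysis was possible because replicate numbers only follow accession order. Depth is unknown, so the limit it sets on genes near 0, such as Apoa5, cannot be given.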
